A study of Mus musculus with 8 samples.

Results

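The pro-apoptotic arm of the Bcl2 family holds the effectors Bak1 and Bax and the BH3-only proteins Bcl2l11 (Bim), Bbc3 (Puma), Bid, Bmf, Pmaip1 (Noxa), Bad, Bik and Hrk. Every non-control probe whose gene name was one of these 10 members was taken, with older names resolved through the RefSeq identifier of the probe. This gave 11 of the 55681 probes on the array, 1 for each member except Bad, which had 2. The members were measured in '18-81' cells transfected with pre-miR-125b, '18-81' cells with miR-Neg, 70Z/3 cells with pre-miR-125b and 70Z/3 cells with miR-Neg. Each group had 2 arrays, replicates 1 and 2, from 2 independent experiments.

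Both are mouse pre-B leukaemia lines; '18-81' is a pre-B cell transformed by Abelson murine leukaemia virus, and 70Z/3 is a pre-B lymphoblast. All groups received a synthetic duplex at 10 nM with a lipid reagent, fresh medium at 8 h and lysis at 48 h, so the miR-Neg groups are transfected controls. The stated aim was to find targets of miR-125b. Each group rests on 1 cell line, so the replicates are repeat transfections of it, and the array has no value here for mature miR-125b, so the amount delivered is not known from these data.

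Bax and Bak1 sit at the outer mitochondrial membrane and, once activated, form the pores through which cytochrome c leaves and switches on caspases. BH3-only proteins start this step, either by engaging the effectors directly or by occupying the pro-survival proteins such as Bcl2 and Mcl1 that hold them in check. In the B lineage Bcl2l11 is best known for the removal of self-reactive and cytokine-deprived cells. Bak1, Bbc3 and Bmf have been reported in other cells as targets of miR-125b, which makes the duplex comparison the one the design poses for them.

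The microRNA is shown because its seed (bases 2 to 8, in capitals) is the part that pairs with target transcripts, and 3 probes of the family follow it. The mature strand, from RefSeq on GRCm38.p6, is the same at its loci Mir125b-1 on chromosome 9 and Mir125b-2 on chromosome 16, and miR-125a-5p shares its seed.
mmu-miR-125b-5p: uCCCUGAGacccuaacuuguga
mmu-miR-125a-5p: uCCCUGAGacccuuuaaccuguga
The Bcl2l11 probe and the second Bad probe are shown because their 60 bases are spread over 11096 and 486 bases of mm9, so that each crosses an intron and reads spliced RNA. The Bik probe is shown because it holds the reverse complement of the seed, in capitals from its base 33.
Bcl2l11 probe: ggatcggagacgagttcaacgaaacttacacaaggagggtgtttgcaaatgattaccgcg
Bad second probe: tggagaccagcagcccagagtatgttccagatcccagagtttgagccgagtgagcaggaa
Bik probe: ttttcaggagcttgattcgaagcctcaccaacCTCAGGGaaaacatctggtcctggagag
The motif CTCAGGG, searched on the probe's transcript strand, stands in 245 of the 55681 probes (0.440%), and Bik's was the only probe among those of the members to hold it. It is a match of letters, not a measured site, and a 60-base probe says nothing of the rest of a transcript.

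The other probes lay on mm9 at chr17:27156807-27156866 on the minus strand (Bak1), chr7:52717122-52717181 on the minus strand (Bax), chr7:16903403-16903462 on the plus strand (Bbc3) and chr6:120843464-120843523 on the minus strand (Bid). The Bmf probe lay at chr2:118354496-118354555 on the minus strand and the Pmaip1 probe at chr18:66625088-66625147 on the plus strand. The Bcl2l11 probe spans chr2:127972893-127983988, and the Bad probes lie at chr19:7026323-7026382 and chr19:7016918-7017403, all on the plus strand. The probes of Bik at chr15:83374048-83374107 and of Hrk at chr5:118639423-118639482 are on the plus strand too. The position of each probe within exons or untranslated regions was not annotated here.

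Levels are log2 of the processed probe intensity relative to the 75th percentile of the same array, so 0 is the level of that percentile, and they are compared only within a probe. That percentile was 335.2 intensity units on the array of 70Z/3 miR-Neg replicate 2 and between 499.8 and 712.7 on the others, and 38.0% to 45.1% of probes were well above background. The number of arrays, 2 a group, limits the precision. Of 12 markers of B-cell precursors, 10 were well above background on both arrays of every group, the exceptions being Ighm and Rag1. Of 9 T-cell markers, 8 and 7 were so in '18-81' cells with miR-125b and miR-Neg, against 5 in both 70Z/3 groups; of 4 erythroid markers, 2 were so in both '18-81' groups (Epor and Gata1), against 0 in both 70Z/3 groups. Of 8 myeloid markers 6 were so in 70Z/3 cells with miR-125b and 4 in the other groups, and of 6 stromal markers 2 in every group. The array of 70Z/3 miR-Neg replicate 2 had the lowest share of probes well above background, 38.0%, and its part in these counts was not tested. The part of these cell types in the results below was not tested, and fewer cells of a type and less RNA per cell cannot be told apart.

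The 9 probes of 8 members were well above background on all 8 arrays. Bik and Hrk were not on any, and the plot of all members by array shows the levels described below.

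**Figure D1:**
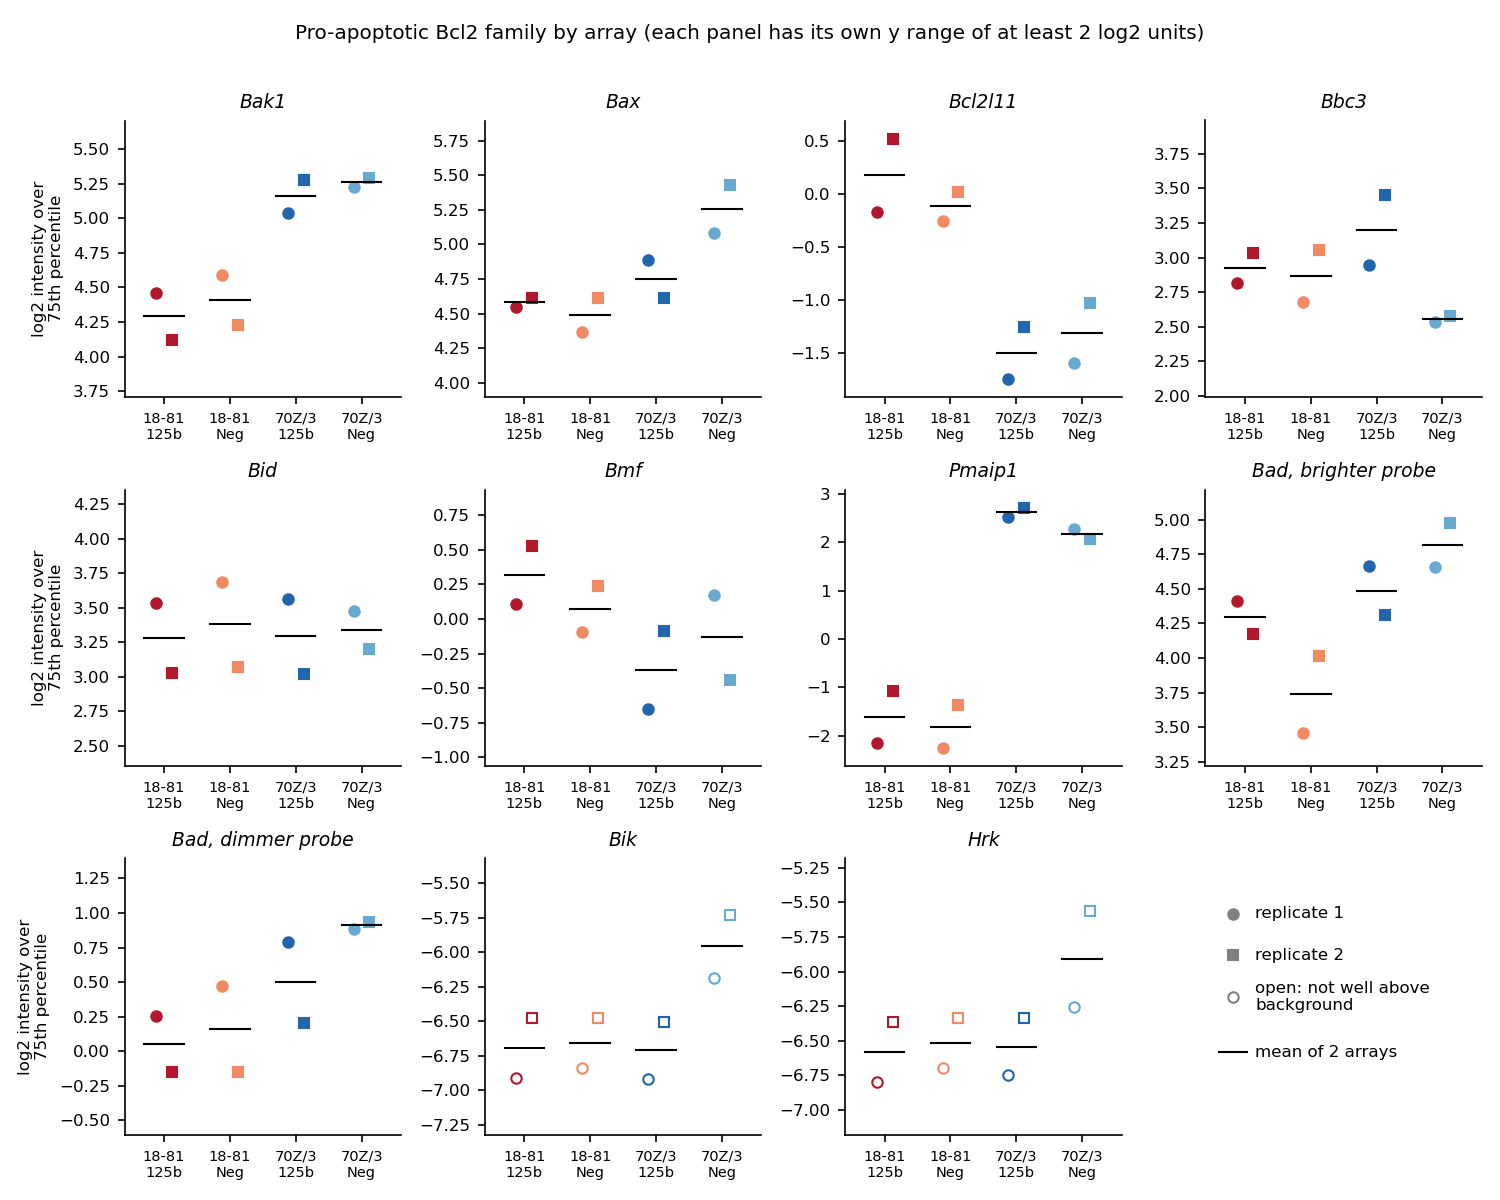
Log2 intensity over the array's 75th percentile (y axis, a separate range in each panel) for the 11 probes of the family in '18-81' cells with miR-125b, '18-81' cells with miR-Neg, 70Z/3 cells with miR-125b and 70Z/3 cells with miR-Neg (x axis, left to right). Circles are replicate 1, squares replicate 2, bars the mean of 2 arrays, and open symbols arrays not well above background. Pmaip1 and Bak1 lie lower and Bcl2l11 higher on all 4 arrays of '18-81' cells than on all 4 of 70Z/3 cells. Bid is split by replicate in every group with replicate 1 above, and Bcl2l11 and Bbc3 with replicate 2 above.

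The first comparison sets '18-81' against 70Z/3 cells with both duplexes together, 4 arrays a line. Pmaip1 and Bak1 were lower and Bcl2l11 was higher in '18-81' cells; Bax, Bad, Bmf, Bbc3 and Bid did not pass the test. In the limma fit to all probes with Benjamini-Hochberg adjustment at 0.05, 3 of the 8 members tested were called (37.5%), 1 higher and 2 lower. Over all 25290 probes tested the same rule called 31.7%, 15.8% higher and 15.9% lower, so the share among the members was near the background. The 4 arrays of each line did not overlap for the same 3 members (37.5%), against 36.5% of all probes. The median difference of the 8 members was −0.23, against 0.02 over the genes tested. The p-values measure the spread between repeat transfections of 1 line of each origin, and do not extend to other lines.

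Among the effectors, Bak1 gave log2 levels of 4.46 and 4.12 in '18-81' cells with miR-125b and 4.59 and 4.23 with miR-Neg, against 5.04 and 5.28 in 70Z/3 cells with miR-125b and 5.23 and 5.29 with miR-Neg. All 4 arrays of '18-81' cells were below all 4 of 70Z/3 cells. The mean was 4.35 in '18-81' and 5.21 in 70Z/3 cells, a log2 difference of −0.86 ± 0.21 (SE; 95% interval −1.33 to −0.39; limma adjusted p = 0.0135), or 1.81-fold lower. It was −0.61 in the first experiment and −1.11 in the second. The Bak1 call was lost without 70Z/3 miR-125b replicate 2, '18-81' miR-Neg replicate 2 or '18-81' miR-125b replicate 2. Its log2 difference was then −0.80, −0.77 and −0.78. Each of these fits leaves 1 array in a group and called a smaller share of all probes than the fit to all arrays.

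Bax, the other effector, gave log2 levels of 4.55 and 4.62 in '18-81' cells with miR-125b and 4.36 and 4.61 with miR-Neg, against 4.89 and 4.61 in 70Z/3 cells with miR-125b and 5.08 and 5.43 with miR-Neg. The lines overlapped only through 70Z/3 miR-125b replicate 2, which was level with replicate 2 of both '18-81' groups. The log2 difference between the lines was −0.47 ± 0.20 (SE; 95% interval −0.93 to −0.002; limma adjusted p = 0.119). With the replicate number as a block, which takes out what same-numbered arrays share, Bax passed the limma test (adjusted p = 0.0463). That fit called 47.3% of all probes, against 31.7% without the block. With the authors' normalized values Bax passed as well (limma adjusted p = 0.0486), in a fit that called 35.2% of all probes.

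Bcl2l11, a BH3-only protein that can engage the effectors and every main pro-survival protein, gave log2 levels of −0.18 and 0.52 in '18-81' cells with miR-125b and −0.25 and 0.02 with miR-Neg. In 70Z/3 cells its levels were −1.74 and −1.26 with miR-125b and −1.59 and −1.03 with miR-Neg. The arrays of the lines did not overlap. The log2 difference was 1.43 ± 0.26 (SE; 95% interval 0.83 to 2.03; limma adjusted p = 0.0035), or 2.70-fold higher in '18-81' cells, and was nearly the same in both experiments, 1.45 and 1.41. With the miR-Neg arrays alone it was 1.19 with a limma adjusted p of 0.0824, in a fit that called 18.7% of all probes.

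Bbc3, a target of p53, and Bid, which caspase-8 cuts to its active form, showed no difference between the lines that passed the test. Bbc3 differed by 0.02 ± 0.22 on the log2 scale (SE; 95% interval −0.48 to 0.52; limma adjusted p = 0.962). Bid differed by 0.01 ± 0.25 (SE; 95% interval −0.57 to 0.60; limma adjusted p = 0.975).

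Bid varied with the replicate number: its log2 levels were 3.53 and 3.03 in '18-81' cells with miR-125b, 3.69 and 3.07 in '18-81' cells with miR-Neg, 3.56 and 3.02 in 70Z/3 cells with miR-125b and 3.48 and 3.20 in 70Z/3 cells with miR-Neg. Replicate 1 was above replicate 2 in all 4 groups. Bcl2l11 and Bbc3 were split the other way, with replicate 2 above replicate 1 in all 4 groups. Same-numbered samples shared deviations over all probes (r 0.377 to 0.640 between groups). The share of all probes split by replicate in every group was not counted.

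Pmaip1, a p53 target whose protein binds Mcl1, showed the widest difference of the family. Its log2 levels were −2.15 and −1.06 in '18-81' cells with miR-125b and −2.25 and −1.37 with miR-Neg, against 2.52 and 2.72 in 70Z/3 cells with miR-125b and 2.28 and 2.07 with miR-Neg. The mean was −1.71 in '18-81' and 2.40 in 70Z/3 cells, a log2 difference of −4.11 ± 0.31 (SE; 95% interval −4.83 to −3.39; limma adjusted p = 1.97e-05), or 17.2-fold lower. The difference was −4.60 in the first experiment and −3.61 in the second, and its replicates in '18-81' cells lay farther apart than those of any other member, by 1.09 with miR-125b and 0.88 with miR-Neg. Pmaip1 was still well above background in '18-81' cells, at processed intensities from 147.0 to 268.3, so its difference was measured on both sides.

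Bad, which is held in the cytosol by 14-3-3 proteins when phosphorylated, was read by 2 probes. The brighter probe gave log2 levels of 4.41 and 4.18 in '18-81' cells with miR-125b and 3.46 and 4.02 with miR-Neg, against 4.66 and 4.31 in 70Z/3 cells with miR-125b and 4.66 and 4.98 with miR-Neg. The dimmer, intron-crossing probe gave 0.26 and −0.15 in '18-81' cells with miR-125b and 0.47 and −0.15 with miR-Neg, against 0.79 and 0.21 in 70Z/3 cells with miR-125b and 0.89 and 0.94 with miR-Neg. The arrays of the lines overlapped for both probes. Their log2 differences were alike, −0.64 ± 0.23 (SE; limma adjusted p = 0.0666) and −0.60 ± 0.25 (SE; limma adjusted p = 0.105), and both passed with the replicate block (limma adjusted p = 0.0378 and 0.0244), which called 47.3% of all probes. The brighter probe also passed under another background correction, quantile normalization, a percentile over brighter probes, the authors' normalized values and an intensity trend. Its limma adjusted p was 0.0372 to 0.0495 in these fits, which called 32.2% to 35.2% of all probes.

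Bmf, which in healthy cells is bound to the cytoskeleton through a dynein light chain, gave log2 levels of 0.11 and 0.52 in '18-81' cells with miR-125b and −0.09 and 0.24 with miR-Neg. In 70Z/3 cells they were −0.65 and −0.09 with miR-125b and 0.18 and −0.44 with miR-Neg. The lines overlapped, and the log2 difference of 0.44 ± 0.25 (SE) did not pass (limma adjusted p = 0.229).

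Bik and Hrk, BH3-only proteins known from the endoplasmic reticulum and from neurons, were not well above background on any of the 8 arrays. The processed intensity of Bik was 5.94 and 6.31 in '18-81' cells with miR-125b, 6.11 and 6.45 in '18-81' cells with miR-Neg, 5.77 and 5.52 in 70Z/3 cells with miR-125b and 7.01 and 6.32 in 70Z/3 cells with miR-Neg. That of Hrk ranged from 6.19 to 7.09, and the dimmest probes well above background on these arrays had 15.6 to 31.3. No fold is given for either gene, and so the seed match in the Bik probe has no measured level beside it.

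**Figure D2:**
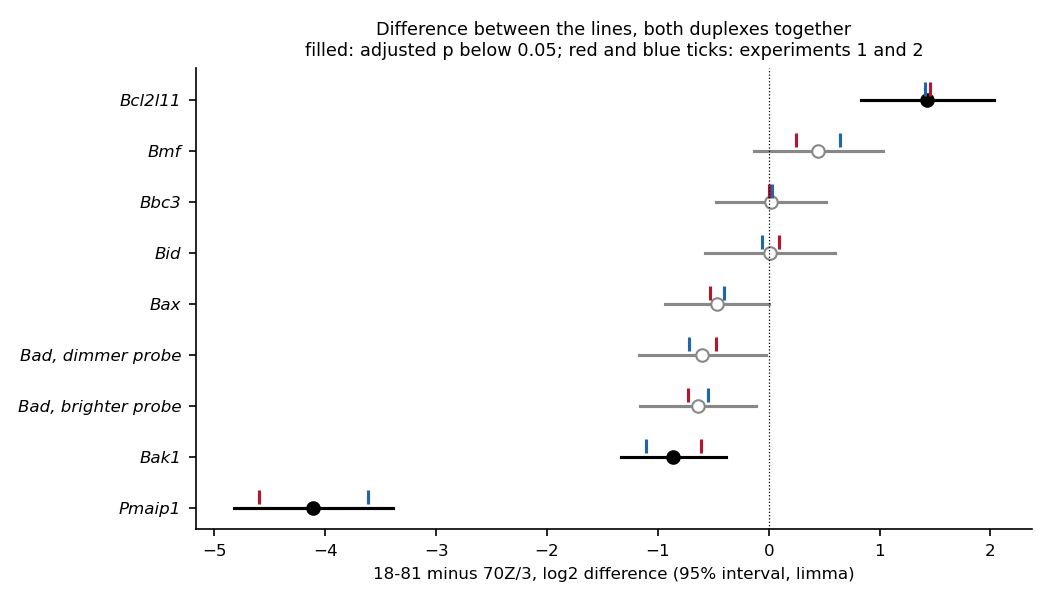
Log2 difference of '18-81' minus 70Z/3 cells (x axis) for the 9 tested probes, with both duplexes together. Circles are the limma estimate, filled where the adjusted p was below 0.05, lines the 95% interval, and red and blue ticks the difference within experiments 1 and 2. Pmaip1 at −4.11 stands far to the left, Bak1 at −0.86 and Bcl2l11 at 1.43 are the other filled circles, and Bbc3 and Bid lie at 0.

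The duplex comparison asks whether miR-125b moved the members in each line. No member passed the limma test in either line, on average over the lines, or in the difference between the lines. In '18-81' cells 0 of 8 members were called, against 0% of the 25290 probes, and 0 of 8 had an unadjusted p under 0.05, against 1.24% of probes. In 70Z/3 cells 0 of 8 were called, against 0% of probes, and 0 of 8 had an unadjusted p under 0.05, against 6.05% of probes. The arrays of the duplexes did not overlap for 1 of 8 members in '18-81' cells (12.5%; 13.1% of all probes) and for 3 of 8 in 70Z/3 cells (37.5%; 37.9% of all probes), so both shares were near the background. The median of the 8 members was 0.15 in '18-81' cells and −0.14 in 70Z/3 cells, beside 0.03 and −0.13 over all genes tested. The value for 70Z/3 cells moved with the scaling: over all probes the median was −0.12 here and −0.01 after quantile normalization.

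Bak1, reported as a miR-125b target in other cells, had overlapping duplex groups in both lines. In '18-81' cells its log2 levels of 4.46 and 4.12 with miR-125b, against 4.59 and 4.23 with miR-Neg, gave a difference of −0.12 ± 0.29 (SE; 95% interval −0.79 to 0.55). With 70Z/3 cells the levels of 5.04 and 5.28 with miR-125b, against 5.23 and 5.29 with miR-Neg, gave −0.10 ± 0.29 (SE; 95% interval −0.77 to 0.57), which lay at the median of all genes there. Averaged over the lines the Bak1 difference was −0.11 ± 0.21 (SE; 95% interval −0.58 to 0.36; limma adjusted p = 1.00). The 4 differences within an experiment ran from −0.19 to −0.01, all on the lower side, but after quantile normalization the difference in 70Z/3 cells was 0.14. The interval leaves room for a decrease of up to 0.58.

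Bbc3 and Pmaip1 overlapped between the duplexes in '18-81' cells and had the highest differences of the members in 70Z/3 cells. In '18-81' cells Bbc3 gave log2 levels of 2.82 and 3.04 with miR-125b, against 2.68 and 3.05 with miR-Neg, a difference of 0.06 ± 0.30 (SE). Its levels in 70Z/3 cells were 2.95 and 3.45 with miR-125b, against 2.53 and 2.58 with miR-Neg, so that both miR-125b arrays were above both miR-Neg arrays. The difference there was 0.65 ± 0.30 (SE; 95% interval −0.06 to 1.35; limma adjusted p = 0.768), and 0.42 and 0.87 within the experiments. Under 7 of 19 alternatives, the other scalings among them, Bbc3 had an unadjusted limma p between 0.0099 and 0.046. Its differences there were 0.65 to 0.83, with an adjusted p of 0.223 or more in each. In those fits 1352 to 5045 of the 25290 probes had an unadjusted p under 0.05, beside 1 of the 8 members. For Bbc3 the effect in '18-81' minus that in 70Z/3 cells was −0.58 ± 0.43 (SE), which did not pass.

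The duplex difference of Pmaip1 was 0.20 ± 0.44 in '18-81' cells and 0.44 ± 0.44 in 70Z/3 cells (SE; 95% interval in 70Z/3 cells −0.58 to 1.46). Its levels of 2.52 and 2.72 in 70Z/3 cells with miR-125b were both above the 2.28 and 2.07 with miR-Neg.

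Bax, which overlapped between the duplexes in '18-81' cells, gave a difference of 0.09 ± 0.28 there (SE). Its log2 levels in 70Z/3 cells were 4.89 and 4.61 with miR-125b, against 5.08 and 5.43 with miR-Neg. These arrays did not overlap, and the difference of −0.51 ± 0.28 (SE; 95% interval −1.16 to 0.15; limma adjusted p = 0.768) did not pass. With other scalings it lay between −0.44 and −0.25. The test between the lines gave 0.60 ± 0.40 (SE), which did not pass either.

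The 2 Bad probes, which read alike between the lines, did not read alike between the duplexes in '18-81' cells. There the brighter probe gave 4.41 and 4.18 with miR-125b, against 3.46 and 4.02 with miR-Neg, a log2 difference of 0.56 ± 0.32 (SE; 95% interval −0.18 to 1.29), while the dimmer probe gave −0.11 ± 0.35 (SE). The first of these rested mainly on miR-Neg replicate 1, since the differences within experiments were 0.95 and 0.16. Both probes in 70Z/3 cells were on the lower side, at −0.33 ± 0.32 and −0.41 ± 0.35 (SE). The duplex arrays there overlapped for the brighter probe and not for the dimmer, as for 37.9% of all probes. After quantile normalization the brighter probe gave −0.11 there and the dimmer −0.41. With the percentile over probes above background on every array they gave −0.15 and −0.23. The test between the lines gave 0.89 ± 0.45 (SE; limma adjusted p = 0.939) for the brighter probe.

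Bmf, Bcl2l11 and Bid had small and overlapping differences. For Bmf the log2 difference was 0.24 ± 0.36 in '18-81' cells (SE). Bmf in 70Z/3 cells gave −0.24 ± 0.36 (SE; 95% interval −1.06 to 0.59), and the experiments opposed each other at −0.83 and 0.35. Bcl2l11 gave 0.29 ± 0.37 in '18-81' and −0.19 ± 0.37 in 70Z/3 cells (SE). Bid gave −0.10 ± 0.36 in '18-81' and −0.05 ± 0.36 in 70Z/3 cells (SE).

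Over both lines 0 of 8 members were called on average (0% of probes; 0 of 8 members and 2.67% of probes at an unadjusted p under 0.05). For the difference between the lines the counts were 0 of 8 called (0% of probes; 0 of 8 members and 3.38% of probes unadjusted). Arrays that did not overlap within either line and ran in the same direction in both were found for 0 of 8 members and 2.27% of probes. For scale, replicates of a group differed by a median of 0.28 to 0.49 over the 9 probes, a range that most of the duplex differences did not exceed. All differences in the duplex plot have intervals that include 0.

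**Figure D3:**
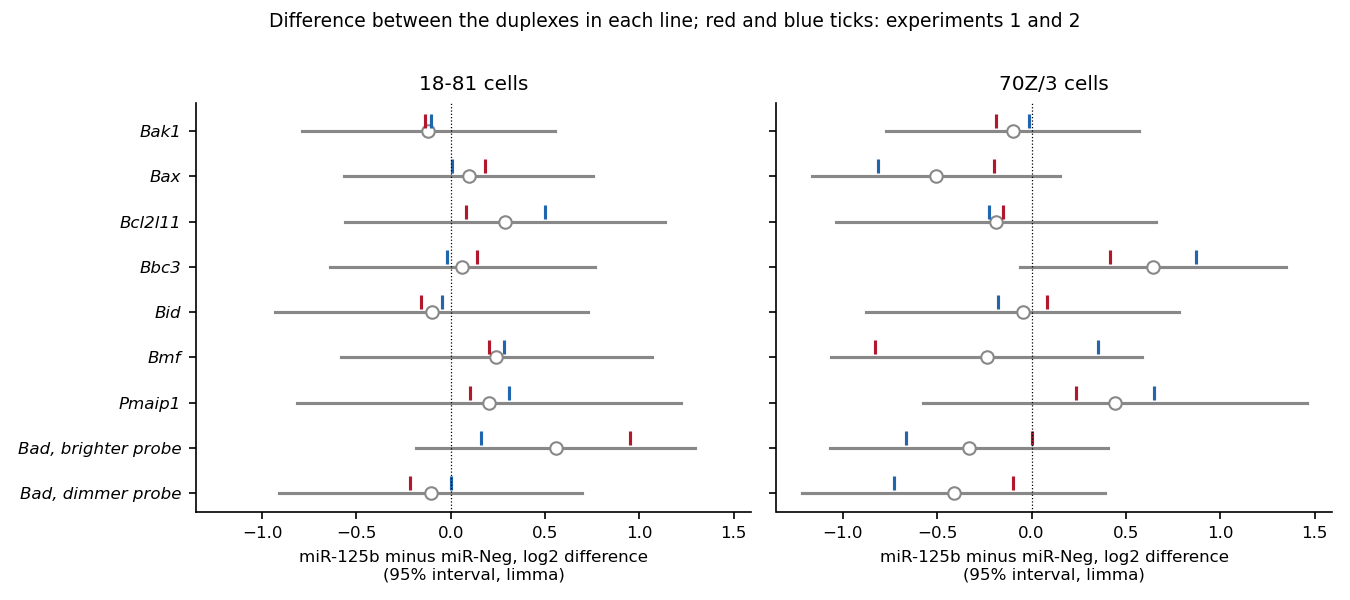
Log2 difference of miR-125b minus miR-Neg (x axis) for the 9 tested probes in '18-81' cells (left) and 70Z/3 cells (right). Circles are the limma estimate, lines the 95% interval, and red and blue ticks the difference within experiments 1 and 2. Every interval crosses 0; Bbc3 in 70Z/3 cells, at 0.65, and the brighter Bad probe in '18-81' cells, at 0.56, lie farthest to the right, and Bax in 70Z/3 cells, at −0.51, farthest to the left.

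The rest of the pathway was read through lists of genes that oppose, resemble, follow or control the members, each gene by its brightest probe. Of the pro-survival family, 6 of the 9 listed genes were tested between the lines; 3 were higher in '18-81' cells and 1 was lower (66.7%, beside 31.7% of all probes), with a median difference of 0.04, beside 0.02 over all genes. Bcl2 was higher by 1.53 ± 0.24 on the log2 scale (SE; limma adjusted p = 0.0016) and Mcl1, the partner of Pmaip1, by 0.87 ± 0.19 (SE; 0.0096), while Bcl2l1 (Bcl-xL) differed by −1.12 ± 0.31 (SE; 0.026). Bcl2l2 (Bcl-w) was at least 28.4-fold higher, with mean levels of 0.34 in '18-81' and −5.86 in 70Z/3 cells, where it was above background on 0 of 4 arrays (limma adjusted p = 2.77e-06). Such bounds set the brighter mean against the lowest signal well above background, and each list's median is the same with these genes at their bound. Bcl2l2, and Naip1 and Trim2 below, entered the test through 1 line alone and stood at background in the other, so their p-values and their place in the counts add no support.

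Among other Bcl2-related genes, 10 of 11 were tested, 3 were higher and 2 lower in '18-81' cells (50%, beside 31.7% of all probes), with a median of 0.10. Bok, an effector-like relative of Bax and Bak1, differed by −3.14 ± 0.29 on the log2 scale (SE; limma adjusted p = 6.55e-05). Bcl2l15, a further relative, was higher by 4.37 ± 0.39 (SE; 5.43e-05), and Bnip3, known from hypoxia and mitophagy, by 2.02 ± 0.39 (SE; 0.0045). Bcl2l12 differed by −1.01 ± 0.20 (SE; 0.0056).

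Downstream of the effectors, all 16 genes of the mitochondrial step and the caspases were tested; 0 were higher and 3 lower in '18-81' cells (18.8%, beside 31.7% of all probes, 15.9% lower), with a median of −0.23. Htra2, a mitochondrial protease released with cytochrome c, differed by −1.89 ± 0.23 on the log2 scale (SE; limma adjusted p = 0.00032) and the caspase Casp6 by −0.90 ± 0.27 (SE; 0.038). Of the 7 inhibitors of apoptosis 2 were higher and 0 lower (28.6%, beside 31.7% of all probes), with a median of 0.19: Naip2 by 2.76 ± 0.24 (SE; limma adjusted p = 4.23e-05) and Naip1 at least 1.58-fold, above background on 3 of 4 arrays of '18-81' and 0 of 4 of 70Z/3 cells (0.0137). The Naip genes are near-identical copies, so which copy was read is uncertain.

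Upstream of Bid, 6 of 8 genes of the death receptor step were tested; 1 was higher and 2 lower (50%, beside 31.7% of all probes), with a median of −0.65, beside 0.02 over all genes. Cflar (c-FLIP), which blocks caspase-8, differed by −1.96 ± 0.21 on the log2 scale (SE; limma adjusted p = 0.00016), the TRAIL receptor Tnfrsf10b by 2.04 ± 0.22 (SE; 0.00018) and the kinase Ripk1 by −1.29 ± 0.35 (SE; 0.025). Of the regulators reported to control the members, 22 of 23 were tested, with 6 higher, 2 lower (36.4%, beside 31.7% of all probes) and a median of −0.12. The kinases Pim1 and Pim3, which phosphorylate Bad, were higher by 4.79 ± 0.39 and 2.21 ± 0.25 (SE; limma adjusted p = 3.08e-05 and 0.00024), and Jun, a transcription factor downstream of stress kinases, by 2.51 ± 0.29 (SE; 0.00025). Trim2, a ubiquitin ligase reported to act on Bcl2l11, was at least 127.9-fold lower, with mean levels of −5.34 in '18-81' and 2.60 in 70Z/3 cells and 0 of 4 arrays of '18-81' cells above background (limma adjusted p = 3.82e-07).

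**Figure D4:**
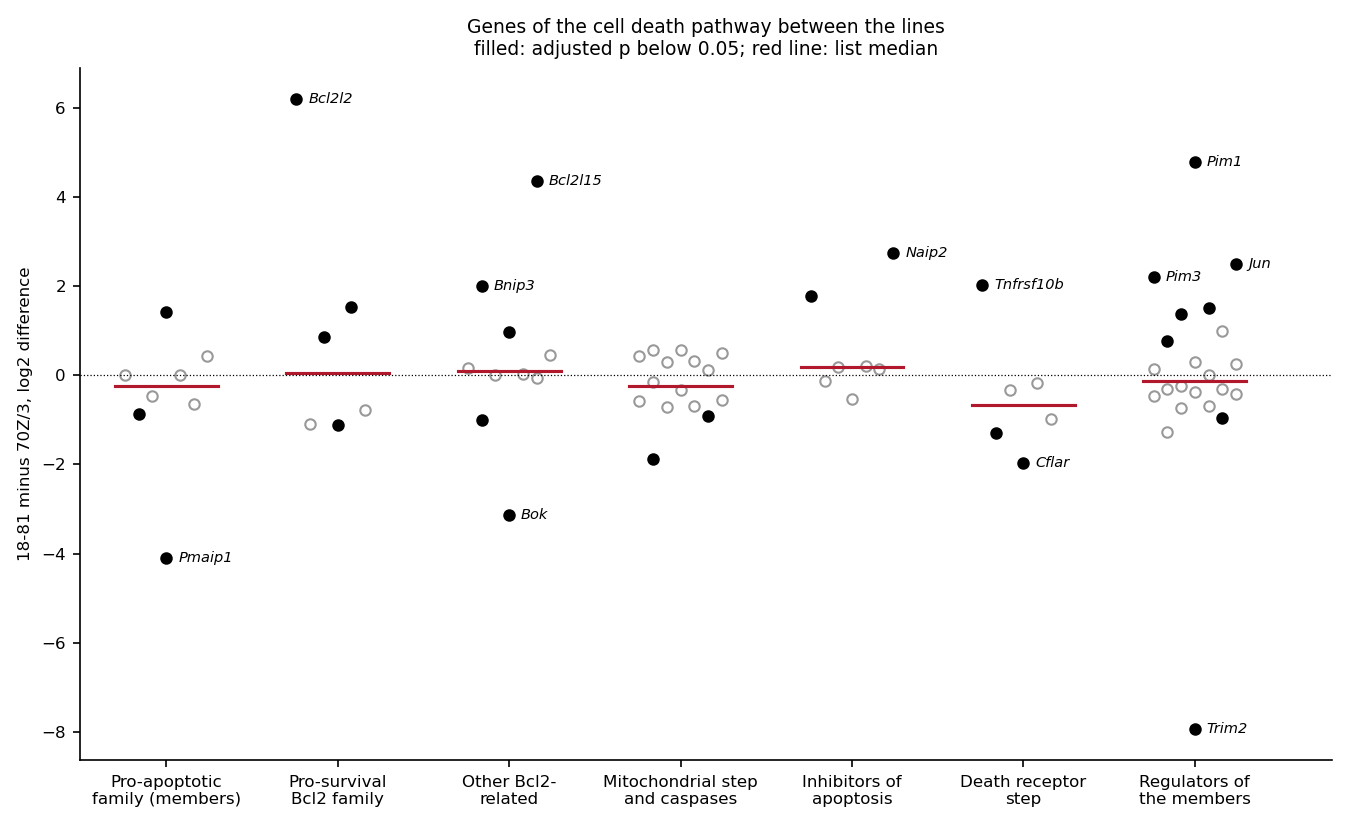
Log2 difference of '18-81' minus 70Z/3 cells (y axis) for the 8 tested members and the reported genes of 6 pathway lists (x axis), 1 probe a gene, filled where the limma adjusted p was below 0.05, with the list median as a red line. Bcl2l2, Naip1 and Trim2 are drawn at their fitted difference although 1 line was at background. List medians lie between −0.65 and 0.19, while single genes lie up to 6.20 above 0 (Bcl2l2) and as low as −7.93 (Trim2).

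Between the duplexes, 0 genes of any of these lists were called by limma in either line, on average or in the difference between the lines. At an unadjusted p under 0.05, 0 genes of any list passed in '18-81' cells or on average. In 70Z/3 cells 1 of the 10 other Bcl2-related genes was lower and 2 of the 22 regulators were higher at that level, which 6.05% of all probes reached, and for the difference between the lines 1 other Bcl2-related gene was, beside 3.38% of all probes. In '18-81' cells the list medians lay between −0.03 and 0.06, beside 0.03 over all genes. The medians in 70Z/3 cells were 0.17 for the pro-survival family, −0.17 for other Bcl2-related genes, −0.41 for the mitochondrial step and caspases, −0.39 for the inhibitors, −0.14 for the death receptor step and 0.15 for the regulators, beside −0.13 over all genes.

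Across the 8 arrays, the gene whose levels followed Pmaip1 most closely among 13689 genes was Spa17 (Pearson r = 0.998), that of Bcl2l11 was Lman1 (r = 0.996) and that of Bak1 was Tespa1 (r = 0.990). The arrays fall into the 2 lines, so these values largely restate a shared difference between the lines.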

How the data were processed

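The 8 RNA samples, each on its own one-colour Cy3 array, were grouped by line and duplex from the sample titles. Per the file headers, the authors' intensity values come from Agilent Feature Extraction 10.7.3.1, which subtracts background and removes spatial trends, with probe positions on mm9. The 8 arrays share 1 slide, where rows follow the replicate number and columns the group. So a column effect cannot be told apart from a group effect, nor a row effect from a difference between the experiments. Linear intensity in the deposited series table was normalized between arrays by the authors (method not given in the sources used here; medians 14.64 to 14.71, r 0.997 to 1.00 with the scanner values as log2) and was an alternative.

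Control spots and spots called outliers (140 to 203 an array) were left out, and spots of a probe averaged; 0 were saturated. The deposited processed intensity was put on the log2 scale and centred on the 75th percentile of each array. Testing needed both arrays of some group to be well above background; 26 with a missing value were left out. limma 3.58.1 in R 4.3.3 fitted 4 group means to 8 arrays (prior degrees of freedom 3.90), with Benjamini-Hochberg adjustment over 25290 probes at 0.05; a gene's brightest probe stood for it (18778 genes). The fit was tested on simulated data with independent noise on each array. That test does not cover the deviations that same-numbered samples share, given below. Probes were named through RefSeq for GRCm38.p6 (26413 by accession, 3859 by symbol, 735 by an older symbol); 24674 kept the file's name. A probe of the kinase Blk, an old name of Bik, was kept out by its RefSeq identifier.

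The members and lists were chosen with earlier results of these data known. Every member is reported, and up to 4 called genes a list, by smallest p; a gene of the lists is not reported here, and list counts and medians include it. Same-numbered samples shared deviations from the group means (r 0.377 to 0.640 over 6 pairs of groups) and come from the same experiment, so the numbers were taken to pair them; the fit reported has no block. Alternatives were the background correction, normalization, series table, filters, 1 probe a gene, replicate block, intensity trend, subsets of arrays, and leaving out each array.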

Additional observations from a re-analysis of the deposited data

How the results depend on the processing

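No member passed the threshold in a duplex comparison or in the difference between the lines under the 17 to 19 alternatives run for each: of 662 differences, 0 were called, the smallest adjusted p was 0.223, and 53 changed sign. Counts of called probes, 0 in each of these comparisons, moved to 2 with quantile normalization and to 2 with the series table in '18-81' cells, and to 1 with normexp and to 1 with the replicate block within each line in 70Z/3 cells. Leaving out 1 array gave 0 to 13 in '18-81' cells (13 without '18-81' miR-125b replicate 2, 5 without its replicate 1), 0 to 2 in 70Z/3 cells (2 without 70Z/3 miR-Neg replicate 2), 0 to 6 on average and 0 to 6 for the difference between the lines. Between the lines, the 3 called members became 5 (with Bax and Bad) under the replicate block, where called probes rose to 11957 (47.3%), and 5 with the series table (8892 probes), and 1 (Pmaip1) with the miR-Neg arrays alone; the replicate block changed no other call of a member. Called probes there, 8022, became 4544 when every array had to be above background and 4722 with the miR-Neg arrays alone; fewer probes or arrays enter these fits. Pmaip1 kept its call under all 19 alternatives (−4.38 to −3.55) and Bcl2l11 under 18 (1.13 to 1.67). Bak1 lost its call under 6 (−0.95 to −0.77), including no filter on dim probes (limma adjusted p = 0.0553) and either duplex alone (0.105 and 0.201). Of the probes tested, 13.0% were called without the filter, 21.5% with miR-125b alone and 18.7% with miR-Neg alone, against 31.7% in the fit reported. The brighter Bad probe passed under 6: the replicate block, series table, normexp, quantile normalization, other percentile and intensity trend. With the loss of Bak1 or the gain of Bad, the count of 3 also moved in fits whose counts are not given above. No called difference changed direction. The median of all probes in 70Z/3 cells was −0.12, −0.01 after quantile normalization and 0.07 with the percentile over probes above background on every array.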
